A study of Mus musculus with 9 samples.

Results

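The genes described here are 10 members of the p53, Arf and apoptosis pathway: Trp53, Cdkn2a, Mdm2, Mdm4, Cdkn1a, Bbc3, Pmaip1, Bax, Bcl2 and Bcl2l11. They were chosen by name, and all 10 were found among the 22367 protein-coding genes of the GENCODE M1 annotation of the mm9 build. For each gene, the peaks of UBTF, the architectural factor that keeps ribosomal RNA gene repeats (rDNA) open for RNA polymerase I, were taken from chromatin immunoprecipitation sequencing (ChIP-seq). A peak counted as a promoter peak when its summit lay within 1 kb of an annotated transcript start of the gene, and as a gene body peak when it lay elsewhere in the gene. The height of a peak is given as its percentile, the percent of the peaks of the same list that had a lower score (ties at their mean rank), because scores were not scaled between libraries. A gene without a promoter peak was set to 0.

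The p53 protein is a transcription factor that stops the cell cycle or triggers apoptosis when DNA is damaged or an oncogene is active. MYC induces p19Arf, which the Cdkn2a gene encodes from its own promoter, and Arf blocks MDM2, the ubiquitin ligase that degrades p53. In Eµ-Myc mice this pathway removes many MYC-driven pre-B cells by apoptosis, and lymphomas of the model commonly lose Arf or p53 function or gain survival signals of the BCL2 type.

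The cells were primary pre-B cells sorted from bone marrow. The labels give the gate B220 high, IgM low and IgD low for each stage, whereas the study's methods give it for wild type and premalignant cells and describe the malignant cells as B220 positive and negative for IgM and IgD, so the gate too cannot be told apart from the malignant stage. Wild type cells came from mice without the transgene, and premalignant and malignant cells from Eµ-Myc mice, in which an immunoglobulin heavy chain enhancer drives MYC in B cells and which were kept as heterozygotes on a C57BL/6 background. Wild type and premalignant mice were females of 4 to 6 weeks, whereas malignant mice were of both sexes and were taken when spontaneous lymphoma was established, at 10 to 20 weeks, so age, sex and stage cannot be told apart for the malignant group. Each stage had 2 UBTF libraries, which the study's methods describe as biological replicate experiments. Its results section names individual animals as the biological replicates of the sorted pre-B cells. The labels do not tie a library to a mouse. The 3 input samples have no peak list and were not used here.

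The lists held 116180 and 184609 peaks in wild type replicates 1 and 2, 78113 and 575674 in premalignant cells and 279068 and 563265 in malignant cells, and the read depth behind them is unknown. The narrowest peak measured 240 to 260 bp in premalignant replicate 1 and the wild type lists, and 670 to 800 bp in the other 3. Both malignant libraries are thus of the wide kind and both wild type libraries of the narrow kind, so peak calling and stage cannot be told apart in that comparison. Of 10 pre-B cell genes, 2 or 3 held a promoter peak in each library, against 0 or 1 of 10 genes of other lineages. Of all protein-coding genes 22.3% to 47.6% had one, and the pre-B cell share was above that of all genes in premalignant replicate 1 only. A UBTF peak does not measure expression, so these counts are no check of cell identity.

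The sequences around the starts show how unlike the promoters of the pathway are. Bcl2 and Trp53 had the highest and the lowest mean promoter percentile, and Cdkn2a has separate starts for Arf and for the cell cycle inhibitor p16Ink4a. Each promoter is printed from up to 250 bases upstream to the base before the start, as far as no annotated exon lies in it, on the strand of the gene and from the mm9 sequence. Capitals mark the GC box, GGGCGG or CCGCCC.
Bcl2 promoter, chr1:108610852-108611101, minus strand: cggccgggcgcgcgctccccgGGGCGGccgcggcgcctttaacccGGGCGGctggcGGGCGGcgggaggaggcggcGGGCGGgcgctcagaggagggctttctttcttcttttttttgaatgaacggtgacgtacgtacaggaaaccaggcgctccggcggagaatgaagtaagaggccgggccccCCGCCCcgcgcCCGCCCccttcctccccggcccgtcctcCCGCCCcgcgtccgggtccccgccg
Trp53 promoter, chr11:69393758-69393860, plus strand: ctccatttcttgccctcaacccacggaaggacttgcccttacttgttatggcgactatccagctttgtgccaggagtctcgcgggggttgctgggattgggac
Cdkn2a promoter of Arf, chr4:88940558-88940807, minus strand: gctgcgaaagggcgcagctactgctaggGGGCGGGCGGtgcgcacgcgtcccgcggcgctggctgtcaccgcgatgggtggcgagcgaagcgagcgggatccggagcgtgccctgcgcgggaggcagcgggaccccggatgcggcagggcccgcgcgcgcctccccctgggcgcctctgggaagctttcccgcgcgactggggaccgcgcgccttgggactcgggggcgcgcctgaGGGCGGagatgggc
Cdkn2a promoter of Ink4a, chr4:88928097-88928346, minus strand: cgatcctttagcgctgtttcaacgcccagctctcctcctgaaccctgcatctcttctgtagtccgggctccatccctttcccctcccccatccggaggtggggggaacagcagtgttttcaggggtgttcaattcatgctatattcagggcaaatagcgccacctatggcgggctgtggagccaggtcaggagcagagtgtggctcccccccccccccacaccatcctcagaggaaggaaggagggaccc
The Bcl2 stretch was 74.8% GC with 38 CpG dinucleotides and held 7 GC boxes. The Arf stretch was similar, with 77.6% GC, 38 CpG dinucleotides and 3 GC boxes. The Trp53 stretch, 103 bases between the start of Trp53 and the nearest exon of its neighbour Wrap53, was 56.3% GC with 4 CpG dinucleotides and no GC box. The Ink4a stretch was 60% GC with 7 CpG dinucleotides and no GC box.

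Trp53, the gene of p53 itself (ENSMUSG00000059552.6, chr11:69393861-69405375), had no UBTF promoter peak in any of the 6 lists. The summit nearest to one of its starts lay 5989 and 16311 bp away in wild type, 16707 and 7440 bp away in premalignant and 7411 and 2999 bp away in malignant replicates 1 and 2. The last of these was the single peak of the gene, an intronic summit in malignant replicate 2 at percentile 51.3. A run of 47 bp of GT repeats lay within 100 bp of this summit. In each list but that one the whole gene was without a summit.

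Cdkn2a (ENSMUSG00000044303.5, chr4:88920377-88940557) had a peak at its Arf promoter in 5 of 6 lists. Its percentile was 34.1 and 48.7 in the wild type lists and 40.4 and 70.5 in the premalignant lists, whereas malignant replicate 1 had none and malignant replicate 2 had 82.1. The summits lay 98 to 539 bp upstream of the Arf start, so that those of 4 of the 5 lists fall within the printed Arf sequence. The Ink4a start had no summit within 1 kb in any list. The most frequent site nearby lay in the intron, with summits 1208 to 1297 bp upstream of the Ink4a start, and its percentile was 80.4 in wild type replicate 2, 32.0 and 64.2 in premalignant cells and 82.1 and 43.5 in malignant cells, with none in wild type replicate 1. Malignant replicate 1, the library without an Arf promoter peak, listed this intronic site as its highest and single peak in the gene. Over the windows of 100 bp on each side of these summits, the median 24-mer (a stretch of 24 bases) had 3 copies in mm9 in malignant replicate 2 and 21 to 25.5 copies in the other 4 lists, whereas that at the Arf summits had 1.

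**Figure D1:**
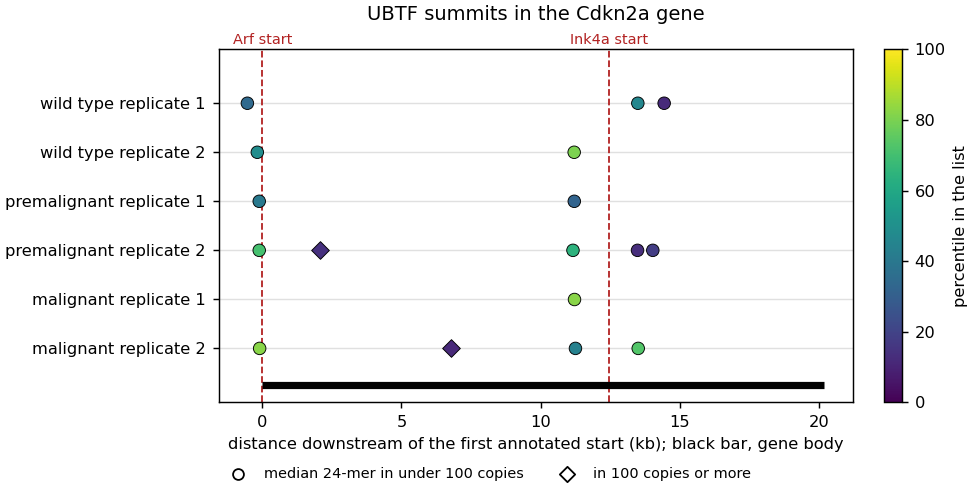
UBTF summits in Cdkn2a by library, against distance in kb downstream of the Arf start, with colour for the percentile in the list, diamonds for summits whose median 24-mer has 100 or more copies in mm9 and dashed lines at both starts. Summits gather just upstream of the Arf start in 5 of 6 libraries and shortly upstream of the Ink4a start in 5 of 6, and none lies at the Ink4a start itself.

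The inhibitors of p53 had promoter peaks of different kinds. Mdm2 (ENSMUSG00000020184.8, chr10:117125944-117147814), the ubiquitin ligase gene that p53 also activates, had low peaks, with percentiles of 19.5 and 29.1 in wild type and of 42.8 and 51.7 in malignant cells, and with none in premalignant replicate 1 and 14.0 in premalignant replicate 2. Both malignant values were above both wild type values, and both premalignant values were below them. Mdm4 (ENSMUSG00000054387.6, chr1:134886422-134921943), whose protein binds p53 and blocks its transactivation, had a promoter peak in replicate 1 of each stage, at 60.2, 79.4 and 57.0 in wild type, premalignant and malignant cells, and none in replicate 2 of each. The stages therefore overlapped fully for Mdm4, and the replicate number separated the libraries. Within replicate 2, wild type had no Mdm4 summit at all, premalignant cells had 5 and malignant cells 6, all in introns.

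Among the genes that p53 activates, Bbc3 reached the highest promoter percentile of the 10 members, while Cdkn1a, Pmaip1 and Bax had peaks in 3 lists or fewer. Bbc3 (ENSMUSG00000002083.6, chr7:16894965-16903554) encodes PUMA, a BH3-only protein that neutralises BCL2. Its promoter percentile was 4.24 and 85.6 in wild type and 55.1 and 99.3 in malignant cells, and premalignant replicate 1 had none where replicate 2 had 98.3. Replicate 2 exceeded replicate 1 in each stage, and the stages overlapped. Malignant replicate 2 listed 5 promoter summits of this gene of 8590 bp, and premalignant replicate 2 and wild type replicate 2 listed 4 each.

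Cdkn1a (ENSMUSG00000023067.7, chr17:29227924-29237667) encodes p21, the inhibitor of cyclin-dependent kinases that arrests the cycle. Its percentile was 60.9 and 30.6 in wild type and 77.0 in malignant replicate 1, and the other 3 lists had none. The 3 summits did not share a place: one lay 838 bp upstream of the first start, and the others 463 bp downstream and 109 bp upstream of the second start. Pmaip1 (ENSMUSG00000024521.7, chr18:66618258-66625204), the gene of the BH3-only protein NOXA, had a peak of 20.8 in wild type replicate 1 and of 31.6 in malignant replicate 1, about 100 bp upstream of its start, and none in the other 4 lists. Bax (ENSMUSG00000003873.9, chr7:52717065-52722268), the effector that opens the outer mitochondrial membrane, had a peak in wild type replicate 2 alone, at 69.0. None of these low or single calls separated a stage from another in both libraries, except that Cdkn1a was higher in both wild type than in both premalignant lists.

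Bcl2 and Bcl2l11 had the highest mean promoter percentiles of the 10 genes, 74.1 ± 36.8 and 70.1 ± 19.9 over all libraries (SD, n = 6). In premalignant cells alone the mean of Bcl2 was 46.85, below Bcl2l11 at 60.85, Cdkn2a at 55.46 and Bbc3 at 49.15. Ranked among all protein-coding genes, Bcl2l11 came first with a mean of 87.19 over all libraries, and Bcl2 had 78.95. Bcl2 (ENSMUSG00000057329.6, chr1:108434755-108610851), the survival factor that binds BH3-only proteins, had a promoter percentile of 78.6 and 84.2 in wild type and of 94.8 and 93.1 in malignant cells, and of 93.7 in premalignant replicate 2. Premalignant replicate 1, the shortest list, had no Bcl2 promoter peak and held a single Bcl2 summit, 149197 bp downstream of the start at percentile 10.1. The best promoter summits of the other 5 lists lay from 214 bp upstream to 80 bp downstream of the start, around the printed Bcl2 sequence. Bcl2l11 (ENSMUSG00000027381.10, chr2:127951774-127988283) encodes BIM, the BH3-only protein whose loss speeds Eµ-Myc lymphoma, and it was the only member with a promoter peak in all 6 lists. Its percentile was 62.6 and 63.1 in the wild type lists, 36.9 and 84.8 in the premalignant ones and 88.8 and 84.3 in the malignant ones. Both malignant values were above both wild type values, and the premalignant values lay on either side of wild type. The best summit stood at the second start group of the gene in 5 lists and at the first in malignant replicate 1.

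**Figure D2:**
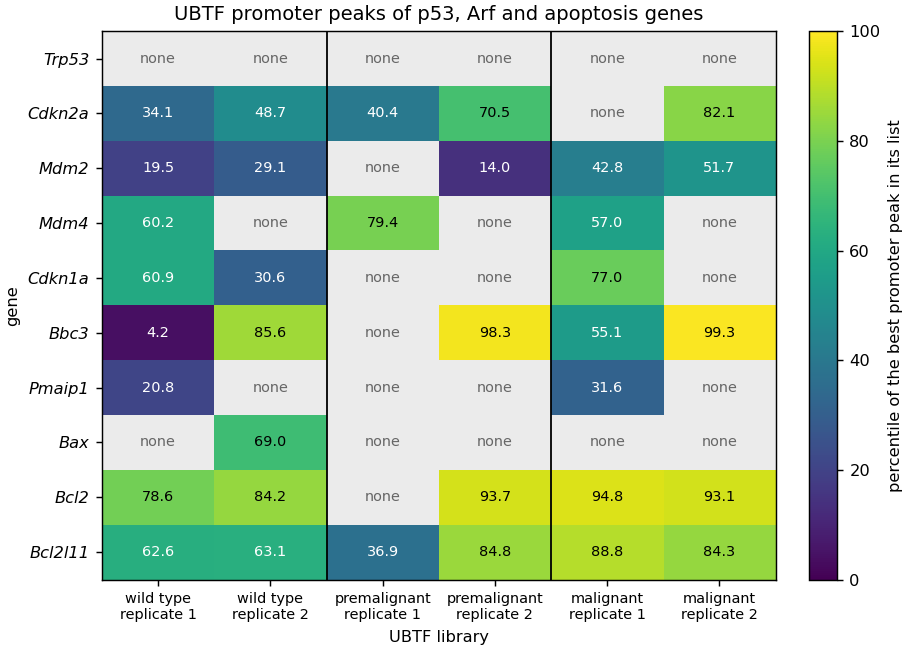
Percentile of the best UBTF promoter peak of each gene (rows) in each library (columns), where colour and number give the percentile and "none" marks a gene without a promoter peak. Bcl2l11 has a value in all 6 libraries and Trp53 in none, and premalignant replicate 1 has 3 values in all.

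Of the 10 genes, 8 and 7 had a promoter peak in wild type replicates 1 and 2, where 36.5% and 45.5% of all protein-coding genes had one. In premalignant cells 3 and 5 had one, against 22.3% and 33.7% of all genes, and in malignant cells 7 and 5, against 47.6% and 41.1%. The members' share was above that of all genes in each of the 6 libraries, and as the members were chosen by name no test was made of it. Counting the gene body as well, 8 and 7 genes had a peak in the wild type lists (57.2% and 67% of all genes), 4 and 7 in the premalignant lists (42.4% and 62.6%) and 8 and 7 in the malignant lists (66.9% and 69.7%). Over all lists, 4 members had promoter peaks in 5 lists, as did 9.55% of all genes, and 1 member in 6 lists, as did 10.3%. Over the members with a promoter peak, the median percentile was 47.2 and 63.1 in wild type against 51.9 and 56.7 over all genes with a promoter peak, 40.4 and 84.8 against 52.9 and 66.3 in premalignant, and 57.0 and 84.3 against 60.5 and 71.8 in malignant cells. These medians are over 3 to 8 members and carry no test.

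The comparison of premalignant with wild type cells asks whether MYC activity before transformation goes with UBTF at these genes. No member was higher in both premalignant lists (2.15% of all genes were), and Mdm2 and Cdkn1a were lower (12.8% of all genes were). The mean percentile of Cdkn1a was 0 against 45.7 ± 21.4 in wild type, and that of Mdm2 was 7.0 ± 9.91 against 24.3 ± 6.80 (SD, n = 2 each, exact permutation p = 0.333 for both, two-sided). With 2 libraries against 2, 0.333 is the smallest p such a test can give, so no single gene can pass it. With a window of 500 bp around each start the 2 stages overlapped for Cdkn1a, at a mean difference of -15.3. Among protein-coding genes, a second scale described with the malignant cells, Mdm2 overlapped between the stages, with 69.3 in premalignant replicate 2 against 68.1 and 63.3. On that scale Cdkn1a was the single lower member, where 10.6% of all genes were lower, and Cdkn2a the single higher one, where 4.14% were. Bcl2 went in opposite directions in the premalignant replicates, since replicate 2 at 93.7 exceeded both wild type values and replicate 1 had no peak.

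Malignant cells were compared with premalignant cells, the step at which lymphoma appears. Mdm2 was higher in both malignant lists, with a mean of 47.3 ± 6.29 against 7.0 ± 9.91 (SD, n = 2 each, exact permutation p = 0.333). Of all genes 12.1% were higher in both malignant lists and 0.934% were lower, the latter with no member among them. In the wide lists alone, Mdm2 was at 42.8 and 51.7 in malignant cells and at 14.0 in premalignant replicate 2, whereas among protein-coding genes premalignant replicate 2 had 69.3, between the malignant values of 67.3 and 72.4. The Mdm2 difference therefore did not hold on that scale. For Bcl2 and Bcl2l11 premalignant replicate 2 had 93.7 and 84.8 among all peaks, also between the malignant values. Among protein-coding genes no member was higher in malignant than in premalignant cells (7.06% of all genes were) and Cdkn2a was lower (3.46% were), with none and 84.7 in malignant and 86.0 and 85.0 in premalignant cells.

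Against wild type, 3 genes were higher in both malignant lists, namely Mdm2, Bcl2 and Bcl2l11, and none was lower, where 13.4% and 5.71% of all genes were. For Bcl2l11 this rested on the best peak over 2 start groups, and neither group alone was higher in both malignant lists. The first had 44.3 and 53.8 in wild type, and 88.8 and none in malignant cells. The second had 62.6 and 63.1 in wild type, and 11.8 and 84.3 in malignant cells. The mean percentile of Bcl2 was 81.4 ± 3.99 in wild type and 94.0 ± 1.21 in malignant cells, that of Bcl2l11 was 62.8 ± 0.376 and 86.5 ± 3.19, and that of Mdm2 was 24.3 ± 6.80 and 47.3 ± 6.29 (SD, n = 2 each, exact permutation p = 0.333 each). These differences did not hold on a second scale, the percentile of the gene's best promoter peak among all protein-coding genes. On it Bcl2 had 94.1 and 94.3 in wild type and 96.3 and 92.5 in malignant cells, Bcl2l11 had 87.0 and 81.4 against 92.2 and 85.8, and Mdm2 had 68.1 and 63.3 against 67.3 and 72.4, and the stages overlapped for each. No member was higher or lower on it, where 8.42% and 9.37% of all genes were. Over all genes this change of scale moved the split of non-overlapping genes from 2987 higher and 1278 lower to 1884 higher and 2096 lower for malignant against wild type, from 481 and 2863 to 925 and 2380 for premalignant against wild type, and from 2698 and 209 to 1579 and 773 for malignant against premalignant. With each list shortened to its best 78113 peaks the split for malignant against wild type was 479 higher and 1674 lower. On the gene scale Cdkn2a had 74.1 and 72.9 in wild type and 86.0 and 85.0 in premalignant cells. The 3 comparisons share libraries and are not independent.

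**Figure D3:**
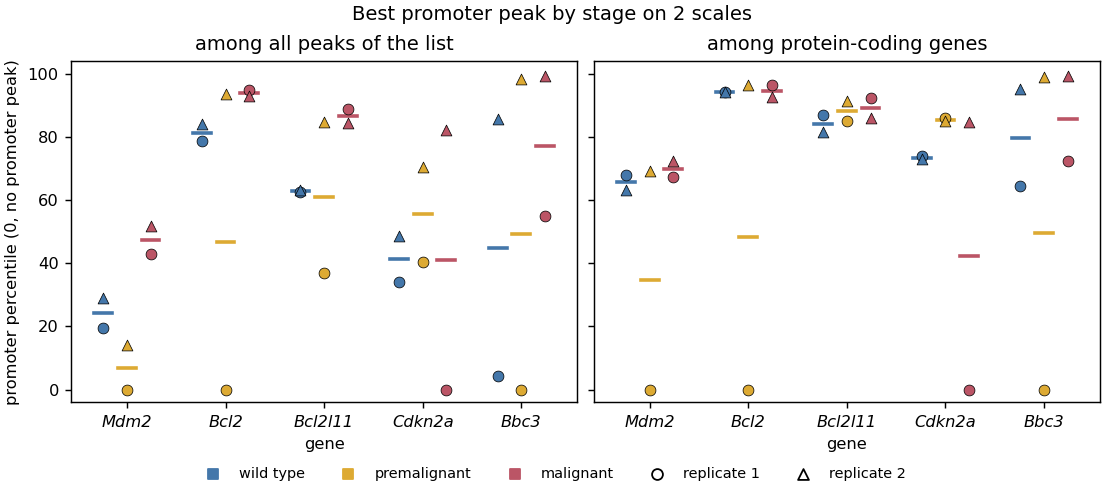
Percentile of the best promoter peak of 5 genes in each library among all peaks of the list (left) and among protein-coding genes (right), with colour for the stage, circles for replicate 1, triangles for replicate 2 and bars for the mean of the 2 libraries. Malignant points of Mdm2, Bcl2 and Bcl2l11 lie above wild type on the left, and the stages overlap on the right.

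A fit over all genes was made with limma on normal scores, the ranks of the genes in each list turned into values of a standard normal curve. It tested 15536 genes with a promoter peak in at least 1 list, 9 of them members, and called 0% in each comparison at an adjusted p under 0.05. At an unadjusted p under 0.05 it had 651 genes for premalignant minus wild type, 342 for malignant minus premalignant and 1007 for malignant minus wild type. For malignant minus wild type the difference in normal score was 0.151 for Mdm2 (95% interval -1.04 to 1.34, limma adjusted p = 0.967), 0.0412 for Bcl2 (-1.33 to 1.41, adjusted p = 0.987) and 0.266 for Bcl2l11 (-0.921 to 1.45, adjusted p = 0.946). In simulated data of this design the fit found 0% of genes shifted by 2 units and 59% of those shifted by 4.

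The irreproducible discovery rate (IDR), which the study used to choose peaks shared by both libraries of a stage, was applied at a global threshold of 0.05. In wild type cells Bcl2 was the single member with a reproducible promoter peak, as had 5.55% of all genes. In premalignant cells no member had one, and 0.21% of all genes did, since 873 of 57845 paired peaks passed. In malignant cells Bcl2 and Bcl2l11 had one, against 7.75% of all genes. Pairing asked only for an overlap of 1 bp, and no Bcl2l11 promoter summits of the malignant lists lay within 500 bp of each other. They stood at chr2:127952067, 127952265 and 127954636 in malignant replicate 1, and at 127953340 in malignant replicate 2. At an IDR under 0.01 no member passed in any stage, although 2.74%, 0.134% and 1.70% of all genes still did in wild type, premalignant and malignant cells.

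Gene bodies gave a different picture from promoters. The 6 lists held 61 promoter summits and 97 gene body summits of the 10 genes, and 87 of the gene body summits were intronic. When summits within 500 bp of each other were joined, they made 16 promoter sites and 48 gene body sites, of which 4 and 1 were present in 5 lists and none in all 6. Promoter summits had a median GC content of 73.6% and a median of 1 copy of their 24-mers in mm9, whereas gene body summits had 46.8% GC and a median of 2 copies. A tandem repeat of at least 40 bp lay within 100 bp of 17 gene body summits and of 1 promoter summit.

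Summits in the members' loci numbered 0.555 and 0.760 per 10 kb in the wild type lists, 0.205 and 1.11 in the premalignant lists and 0.731 and 1.26 in the malignant lists. All protein-coding loci had 0.439 and 0.669, 0.266 and 1.42, and 0.804 and 1.51 in the same libraries, and members and all genes had the same order of libraries except that malignant replicate 1 and wild type replicate 2 changed places. Replicate 2 was the higher library in each stage, and the premalignant replicates differed more than the stage means did. Bbc3 had the most, 7.30 per 10 kb in both premalignant replicate 2 and malignant replicate 2.

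Bcl2 spans 176097 bp and held 22 of the 64 sites. Its gene body had 5 and 8 summits in the wild type lists, 1 and 13 in the premalignant lists and 6 and 16 in the malignant lists. The highest of them were in different places in the wild type and in the wide lists. An intronic site 77512 bp downstream of the start was at 82.9 and 92.0 in wild type, at 3.04 in premalignant replicate 2 and at 33.8 in malignant replicate 2, with none in the other 2 lists. Sites 38858, 40047 and 41123 bp downstream, also intronic, had no peak in the 3 narrow lists. In premalignant replicate 2 they were at 94.9, 93.2 and 97.0, in malignant replicate 2 at 89.4, 87.2 and 93.4, and in malignant replicate 1 at 9.22, 80.9 and 47.5. At these sites the median 24-mer around the summit had from 1542 to 19317 copies in mm9, against 2 to 6 copies at the site 77512 bp downstream. The highest peak of the gene in any list, at percentile 99.7 in premalignant replicate 2, stood 120726 bp downstream of the start, where the median 24-mer had 15254 copies. It is printed because it ranked above the Bcl2 promoter of the same list, with no part in capitals, as no GC box lies in it.
Bcl2 intron summit, chr1:108490025-108490225, minus strand: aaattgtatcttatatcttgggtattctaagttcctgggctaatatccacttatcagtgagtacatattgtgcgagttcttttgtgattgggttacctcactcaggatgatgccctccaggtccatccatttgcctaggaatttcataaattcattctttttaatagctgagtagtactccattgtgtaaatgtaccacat
This stretch was 37.3% GC with 1 CpG dinucleotide, against 74.8% GC in the printed Bcl2 promoter. Wild type replicate 1 had a peak at the same site at percentile 9.78 and malignant replicate 2 at 93.7. A read from such sequence can come from many places. The study's methods state default options throughout, with which bowtie2 reports a single placement for a read that matches several places equally well, picked at random.

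**Figure D4:**
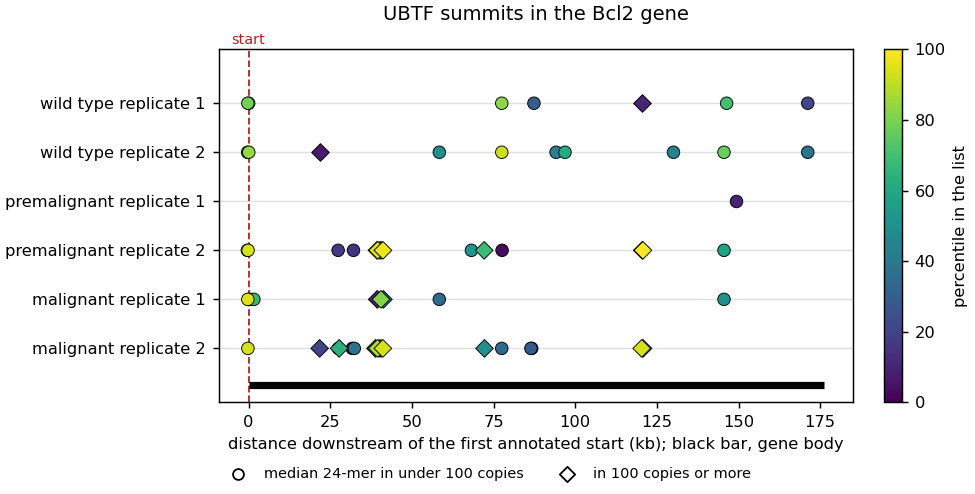
UBTF summits in Bcl2 by library, against distance in kb downstream of the start, with colour for the percentile in the list and diamonds for summits whose median 24-mer has 100 or more copies in mm9. The promoter summits are present in 5 libraries, and the high-copy summits 38858 to 41279 bp downstream appear in premalignant replicate 2 and both malignant libraries only.

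What the promoters share beyond the pathway was read from the 250 bases before and 50 after the first start of each gene. Their GC content ranged from 52.3% in Mdm4 to 78.7% in Bbc3, with a median of 65.5% against 55% over 22362 promoters. Of the 10 genes, 6 (Cdkn2a, Mdm2, Bbc3, Pmaip1, Bcl2 and Bcl2l11) lay in the highest of 3 equal GC classes, from 60.7% up, and had a promoter peak in 5, 5, 5, 2, 5 and 6 lists. Trp53, Mdm4, Cdkn1a and Bax lay in the middle class and had one in 0, 3, 3 and 1 lists. Over all genes the same order held: 61.9% of genes in the highest class and 31.5% in the middle class had a promoter peak in wild type replicate 1, and 39.2% and 18.3% in premalignant replicate 1, the library with the fewest. The class was read at the first start, whereas a peak at any start counted. The Cdkn1a peaks of wild type replicate 2 and malignant replicate 1 lay at its second start. Around those summits the GC content was 61.7% and 68.7%, against 54.7% at the first start. For Bcl2l11 the best peak stood at the second start group in 5 lists. A GC box, GGGCGG on either strand, lay in 7 of the 10 promoters and in 43.4% of all promoters, and Trp53, Mdm4 and Cdkn1a had none. The E-box CACGTG, a motif that MYC binds, lay in the promoters of Trp53 and Bax, and in 7.79% of all promoters.

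**Figure D5:**
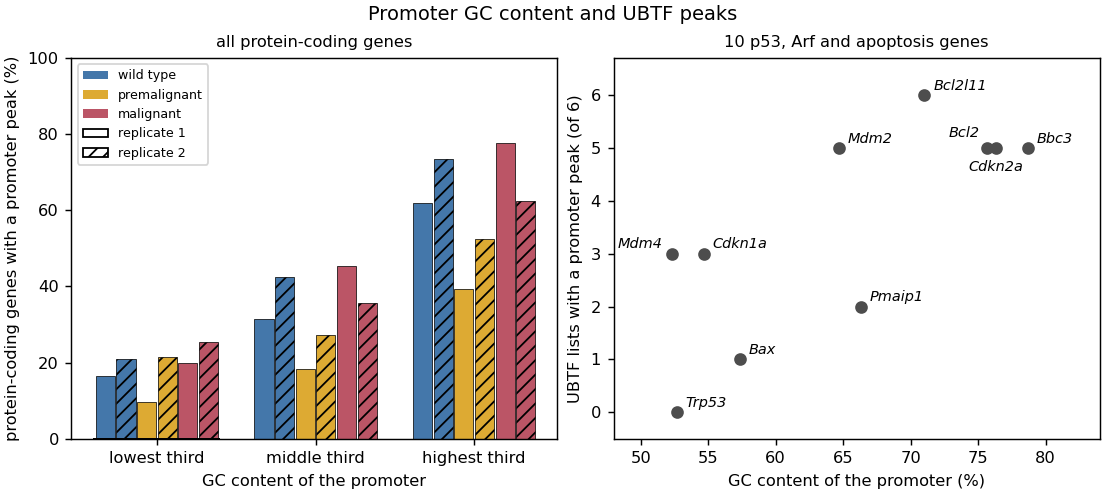
Left, percent of protein-coding genes with a UBTF promoter peak by class of promoter GC content, with colour for the stage and hatching for replicate 2. Right, promoter GC content of the 10 genes at the first start against the number of lists, of 6, with a promoter peak at any start. In each library the share is highest in the highest class. The 5 genes with a peak in 5 or 6 lists have a GC content of 64.7% or more, and Pmaip1, at 66.3%, has a peak in 2 lists.

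The rest of the pathway was described from lists of 74 further genes in all, namely regulators of p53, its target genes, other BCL2 family members, and the apoptosome and caspases. Of 21 p53 regulators, 12 and 17 had a promoter peak in replicates 1 and 2 of wild type, 8 and 15 in those of premalignant and 14 and 14 in those of malignant cells. Of 24 p53 target genes, 14 and 18, 9 and 7, and 17 and 12 had one in the same libraries. For 14 other BCL2 family genes the counts were 8 and 8, 3 and 3, and 9 and 5, and for 15 apoptosome and caspase genes 11 and 9, 6 and 3, and 12 and 6. Both premalignant counts were below the other 4 for the target genes and the BCL2 family, and for the caspases malignant replicate 2 had as few as premalignant replicate 1. Premalignant replicates 1 and 2 also had the lowest share over all genes, 22.3% and 33.7%. From wild type to premalignant cells 2 of the 74 genes (2.7%, against 2.15% of all genes) were higher and 17 (23%, against 12.8%) lower in both libraries, with a median difference of -14.2 percentile points against 0 over all genes. From premalignant to malignant cells 15 (20.3%, against 12.1%) were higher and 1 (1.35%, against 0.934%) lower, with a median of 10.4 against 0.984. From wild type to malignant cells 17 (23%, against 13.4%) were higher and 11 (14.9%, against 5.71%) lower, with a median of 0 against 0. An alternative for these lists, chosen after seeing the data, was the percentile among protein-coding genes. On it 2 (2.7%, against 4.14% of all genes) were higher and 16 (21.6%, against 10.6%) lower from wild type to premalignant cells. The counts were 9 (12.2%, against 7.06%) and 3 (4.05%, against 3.46%) from premalignant to malignant cells. They were 6 (8.11%, against 8.42%) and 12 (16.2%, against 9.37%) from wild type to malignant cells. The direction of this last comparison thus turned, as it did over all genes. With shortened lists the higher and lower counts were 0 and 10, 4 and 0, and 2 and 7 in the same order. None of these 74 genes passed the limma test in any comparison.

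The genes with the largest differences among those whose libraries did not overlap were as follows, without a test of any list. Ddb2, which recognises damaged DNA, was at 75.2 and 84.3 in wild type, had none in premalignant cells and was at 57.0 and 31.4 in malignant cells. Bcl2l1, the gene of the survival factor BCL-XL, was at 77.7 and 71.5 in wild type, had none in premalignant cells and was at 20.8 and none in malignant cells. Phlda3, an inhibitor of AKT that p53 induces, was at 52.8 and 76.7 in wild type with none in premalignant cells. In malignant cells it was at none and 36.6. Hrk, a BH3-only gene, went the other way, with 30.6 and none in wild type and 56.9 and 58.2 in premalignant cells, and so did the checkpoint kinase gene Chek1, with none in wild type or malignant cells and 2.90 and 23.4 in premalignant cells. Bmf, another BH3-only gene, and Trp53inp1, a p53 target, had none in premalignant cells and were at 84.5 and 69.7 and at 48.8 and 82.1 in malignant cells. In wild type Bmf was at 67.2 and 51.0, and Trp53inp1 at 26.4 and none. Rchy1, a ubiquitin ligase for p53, was at none and 32.3 in premalignant and at 66.2 and 85.2 in malignant cells. Perp, a p53 target in the cell membrane, and Rpl5, a ribosomal protein that binds MDM2, had none in wild type and were at 82.1 and 41.4 and at 51.3 and 57.0 in malignant cells. Fadd, the adaptor of death receptors, and Cbx7, a Polycomb protein that represses Cdkn2a, were at 59.9 and 67.5 and at 83.7 and 80.8 in wild type, and at none and 14.9 and at none and 60.1 in malignant cells.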

How the data were processed

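UBTF was precipitated with a rabbit antibody made by the study's laboratory. As its methods describe, the authors mapped 50-bp read pairs with bowtie2 to mm9 joined to 1 copy of the rDNA repeat, removed duplicates with Picard (version 1.110 in the submitters' processing notes) and called peaks in each library with SPP, all with default options. The deposited signal column is a score of the authors' peak caller, in units of its own, and was used only for ranks within a list, where ties counted by their mean rank. Tied scores made up 72.2% to 91.1% of each list. The deposited q-value column holds a false discovery rate (FDR), and the deposited p-value column has 1 constant filler value and was not used. Depth is unknown, so no interval for counting error could be given.

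Summits were set against starts and gene bodies of GENCODE M1 (mm9), and loci ran from gene start to end with 1 kb around each transcript start. Differences of single genes were tested with two-sided exact permutation tests, and all genes with limma 3.58.1 in R 4.3.3 with Benjamini-Hochberg adjustment and no replicate block, over 6 libraries. IDR paired peaks that overlapped by at least 1 bp and fitted a 2-component Gaussian copula mixture from 3 starting points. Both fits were tested on simulated data. Sequence came from NCBIM37 (mm9), and the copies of the 24-mers within 100 bp of a summit were counted on both strands with pysam 0.24.0 and numba 0.67.0, under Python 3.11.15. The members and gene lists were chosen with earlier results of these data known, and so carry no list test. All 10 members are named, and from the other lists up to 3 genes per comparison and direction with the largest difference among those whose libraries did not overlap. Of 22 and 25 listed p53 regulators and target genes, 21 and 24 matched the annotation by symbol.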

Additional observations from a re-analysis of the deposited data

How the results depend on the processing

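The read depth is unknown, and with 2 libraries a stage the smallest p a single gene can reach is 0.333. Each list was also shortened to its best 78113 peaks. The mean number of members with a promoter peak was then 4.5 for wild type and 2.5 for premalignant as for malignant cells. Of all genes 26.3% and 22% had one in wild type replicates 1 and 2. Premalignant replicates 1 and 2 had 22.3% and 7.63%, and malignant replicates 18.8% and 13.0%. The share thus fell over all genes too, except in premalignant replicate 1, the list that set the length. No member had a reproducible promoter peak in any stage. Of all genes 2.16% had one for wild type, 0.21% for premalignant and 0.38% for malignant cells. With these lists 1 member (Bcl2) was lower in premalignant than wild type cells (6.84% of all genes were). None was higher in malignant cells than in premalignant or wild type cells (2.14% of all genes in each case). The density of summits per 10 kb, 0.657 for wild type, 0.657 for premalignant and 0.994 for malignant cells, became 0.292, 0.190 and 0.205 with shortened lists and 0.482, 0.438 and 0.643 with merged regions. Without Bcl2, an alternative chosen after seeing the data, it was 0.848, 0.878 and 1.302. Leaving out 1 library gave 0.555 to 0.760, 0.205 to 1.11 and 0.731 to 1.26, so the premalignant density rests on which library is used. Ranked among protein-coding genes, 1 member (Cdkn2a) was higher and 1 (Cdkn1a) lower in premalignant than wild type cells (4.14% and 10.6% of all genes), 0 were higher and 1 (Cdkn2a) lower in malignant than premalignant cells (7.06% and 3.46%), and 0 were higher in malignant than wild type cells (8.42%). At an IDR under 0.01, 0 members remained in wild type and in malignant cells. The cause of these changes was not tested, beyond the fewer peaks that shortening leaves. Leaving out a library moved the mean number of members with a promoter peak by less than 1.5 times in each stage.

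With the replicate number as a block, limma called 61 genes for malignant minus wild type, 12 higher and 49 lower and none of them a member, and 0 in the other comparisons. The numbers were not taken to pair the samples, because deviations from the stage means correlated at 0.0489 between wild type and premalignant, 0.404 between premalignant and malignant and 0.0901 between wild type and malignant cells. The block left the percentile differences of the members as they were, and its sign-flip permutation cannot give a p under 0.5.

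Differences of single members changed direction in 8 cases in which the libraries of the 2 stages no longer overlapped. Changes of sign with overlapping libraries were not counted. Among protein-coding genes, Bbc3 and Bcl2l11 had -30.2 and 4.09 for premalignant minus wild type, against 4.22 and -1.97 among all peaks. Pmaip1 had -2.01 for malignant minus wild type, against 5.37. With a window of 2 kb, which takes in the intronic site upstream of Ink4a, Cdkn2a differed by 26.7 for malignant minus premalignant and by 18.9 for malignant minus wild type. Leaving out malignant replicate 2 or 1, Cdkn2a ranged from -55.5 to 26.7 and from -41.4 to 40.7 in those comparisons. Leaving out malignant replicate 1 or 2, Cdkn1a ranged from -45.7 to 31.3 for malignant minus wild type. For premalignant minus wild type, leaving out premalignant replicate 2 or 1 gave -44.9 to 53.4 for Bbc3, -81.4 to 12.3 for Bcl2 and -25.9 to 22.0 for Bcl2l11.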

Other observations

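Repeated sequence made up a larger part of the gene body summits of these 10 genes in some libraries than in others. Summits whose median 24-mer occurred in 100 or more copies numbered 1 of 8 and 1 of 12 in wild type, 0 of 3 and 12 of 29 in premalignant and 3 of 13 and 16 of 32 in malignant replicates 1 and 2. At promoters 1 of 61 summits was of this kind, at the last start of Mdm2 in malignant replicate 2. All gene body summits of Mdm4 with 100 or more copies were in premalignant replicate 2 or malignant replicate 2, where its promoter had no peak. Those of Bcl2 were in each library except premalignant replicate 1. The part of peak width, list length and stage in these counts was not tested, as premalignant replicate 2 and both malignant lists are also the wide and the longest ones.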
